A study of Mus musculus with 31 samples.

Results

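Keratins are the intermediate filament proteins of epithelial cells, and 9 keratin genes that mark injured tubules and the ducts of the kidney were followed here in a mouse model of polycystic kidney disease. They were chosen by name: Krt7, Krt8, Krt18, Krt19 and Krt20 of simple and ductal epithelium, Krt5 and Krt14 of basal cells, and Krt23 and Krt80. These genes and the gene lists below were chosen with earlier results of these data known, so shares of all genes beside them are a description. They are 9 of the 23509 genes counted, which include 52 keratin genes in all. Whole-kidney RNA came from 31 mice, of which 12 were Pcy/CD1 mice given PBS, 14 were Pcy/CD1 mice given RGLS4326 at 25 mg/kg under the skin every month, and 5 were untreated CD1 wild-type males. Dosing of the Pcy/CD1 mice started at 5 weeks of age and went on for 25 weeks, and kidneys were taken at 30 weeks in all groups. The sample labels give a weekly schedule for PBS and the protocol text a monthly one. Pcy mice form kidney cysts slowly, and RGLS4326 is a short oligonucleotide that blocks miR-17 and its seed family. The wild-type mice had no injections, so that genotype and injection cannot be told apart in comparisons with them.

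A keratin filament is built from pairs of one type II and one type I chain, and a chain without its partner is degraded. Krt8 and Krt18 are the basic pair of simple epithelia, Krt7 and Krt19 are added in ducts and in urothelium, and Krt5 and Krt14 form the pair of basal cells in stratified epithelia. Krt20 is known from gut and from the umbrella cells of the urothelium and appears in tubules after injury. In the healthy kidney, Krt8 and Krt18 are found mainly in the distal nephron and collecting duct, while the proximal tubule, which makes up most of the cortex, has little keratin. In RNA from a whole kidney, fewer cells of a type and less RNA per cell cannot be told apart.

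Between 14892524 and 27459962 reads per mouse fell on genes, and levels are given as CPM, read counts relative to the library total after scaling by edgeR's TMM method. Differences are log2 fold changes from edgeR's quasi-likelihood test on all 31 mice, with p-values adjusted by Benjamini-Hochberg over 15185 tested genes, and a gene was called where the adjusted p was under 0.05 and the absolute log2 fold change over 0.5. All 9 keratins passed edgeR's filter on low counts. Proximal tubule markers summed to between 24940 and 87480 CPM in every mouse. RGLS4326 mouse 9 stood apart from its group. On a scale over all tested genes except keratins, where the wild-type mean is 0 and the PBS mean is 1, it lay at 0.113. The other RGLS4326 mice lay between 0.575 and 1.13. Differences of the keratins between RGLS4326 and PBS are therefore also given without it, as are list counts it changed and the genes named from them. The closest 2 libraries, those of wild-type mice 3 and 4, differed by more than sampling noise and were counted as separate mice. Library names carry sheet numbers that start again, giving 3 index series with mice of every group in each, and the main results are also given within them.

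The oligonucleotide's target and the promoters of the keratins that moved together are shown first, since they let a reader see what the mRNAs do and do not share. The mature miR-17-5p is encoded on the plus strand of GRCm38 at chr14:115043684-115043706, with its seed, bases 2 to 8, in capitals.
mmu-miR-17-5p: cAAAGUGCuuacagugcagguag
The match to this seed, GCACTTT, was in the 3′UTR of 0 of the 9 keratin mRNAs, both in the main transcript and in the longest annotated 3′UTR, while 14.5% of the 13840 tested genes with a 3′UTR held it. The longest 3′UTRs of the 9 ran from 66 bases (Krt18) to 2648 (Krt7 and Krt80), and that share was not matched for length. In 9 genes the absence of these letters says little beside that share. It says nothing about other ways in which the oligonucleotide could act on a keratin mRNA. All 9 genes lie in the 2 keratin clusters of the mouse genome. The type II genes Krt7, Krt8, Krt5 and Krt80 are on chromosome 15, the type I genes Krt19, Krt20, Krt14 and Krt23 are on chromosome 11, and Krt18 is the exception, a type I gene 23.7 kb from its partner Krt8 on chromosome 15. Krt8 is on the minus strand from 101996698 to 102004482 and Krt18 on the plus strand from 102028180 to 102032027.

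Promoter windows of RefSeq on GRCm38, from 250 bases before to 50 bases after the start of transcription, were on hand for 7 of the 9 genes. The 4 printed here belong to Krt8 and Krt18, to Krt7, whose level followed Krt18 most closely among the keratins, and to Krt20, which differed most between Pcy and wild type. Capitals mark matches on either strand to a TATA box, TATAAA, or a GC box, GGGCGG. The AP-1 motif TGANTCA was searched in the same way.
Krt8, chr15:102004293-102004592, minus strand: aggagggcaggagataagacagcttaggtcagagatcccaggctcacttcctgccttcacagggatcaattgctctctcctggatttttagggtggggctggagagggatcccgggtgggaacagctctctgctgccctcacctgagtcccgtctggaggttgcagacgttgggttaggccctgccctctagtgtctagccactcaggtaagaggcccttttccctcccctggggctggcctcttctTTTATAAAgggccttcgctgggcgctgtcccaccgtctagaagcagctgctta
Krt18, chr15:102027966-102028265, plus strand: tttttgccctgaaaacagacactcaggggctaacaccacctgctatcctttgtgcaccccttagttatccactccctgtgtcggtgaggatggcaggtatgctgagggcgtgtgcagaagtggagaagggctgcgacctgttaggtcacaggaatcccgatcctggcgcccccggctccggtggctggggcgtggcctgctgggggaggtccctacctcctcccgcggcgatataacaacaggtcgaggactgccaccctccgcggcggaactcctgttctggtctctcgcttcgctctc
Krt7, chr15:101412153-101412452, plus strand: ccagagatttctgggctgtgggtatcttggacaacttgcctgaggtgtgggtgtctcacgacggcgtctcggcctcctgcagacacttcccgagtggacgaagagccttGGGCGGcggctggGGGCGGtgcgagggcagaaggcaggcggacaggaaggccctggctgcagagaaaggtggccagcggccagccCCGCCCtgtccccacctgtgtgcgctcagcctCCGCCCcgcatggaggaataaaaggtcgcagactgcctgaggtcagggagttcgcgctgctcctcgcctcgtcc
Krt20, chr11:99438104-99438403, minus strand: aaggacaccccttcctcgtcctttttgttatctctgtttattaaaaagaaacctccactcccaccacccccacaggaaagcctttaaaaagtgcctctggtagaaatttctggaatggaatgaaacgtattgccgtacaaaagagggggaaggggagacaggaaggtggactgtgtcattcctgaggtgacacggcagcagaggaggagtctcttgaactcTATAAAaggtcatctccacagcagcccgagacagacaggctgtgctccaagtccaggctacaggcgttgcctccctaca
Krt8 held 2 overlapping TATA box matches on opposite strands, and Krt20 held 1, where 13.6% of the 32851 promoters of this length in the table held at least 1. Krt7 held 4 GC box matches, and 35.7% of all promoters had any. The window of Krt18 held none of the motifs. By these windows the start of transcription lies 1360 bases inside the GENCODE gene for Krt7 and 1518 bases inside it for Krt14, so that for both another annotated start lies upstream and outside the window. For Krt8 it lies 140 bases inside the gene. The AP-1 letters were in 0 of these 7 windows and in 7.8% of all promoters.

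Pcy kidneys given PBS had more mRNA of 7 of the 9 keratins than wild-type kidneys, by log2 fold changes from 0.91 for Krt8 to 5.14 for Krt20. Across all tested genes, 24.6% were called higher in this comparison. By the adjusted p alone 8 of the 9 were higher, against 37.7% of all genes. For Krt7, Krt8, Krt18, Krt19 and Krt20 every PBS mouse lay above every wild-type mouse, a separation that 20.3% of tested genes showed. Of the 9, 7 (Krt7, Krt8, Krt18, Krt19, Krt20, Krt5 and Krt14) were also called higher in RGLS4326-treated kidneys than in wild type, against 20.3% of all genes, and for 4 of them (Krt7, Krt8, Krt18 and Krt20) every treated mouse lay above every wild-type mouse, against 5.04%. Between RGLS4326 and PBS, 0 of the 9 passed both thresholds, where 1.22% of all genes were called lower. By the adjusted p alone Krt7 and Krt80 were lower with RGLS4326, 2 of 9 against 6.66% of all genes. At an unadjusted p under 0.05, 6 of 9 were lower against 17.2% of all genes, and DESeq2 called 1 (Krt18). Over all genes 327 were called between RGLS4326 and PBS. Leaving out single mice moved that number to between 78 (without PBS mouse 10) and 574 (without RGLS4326 mouse 2), and without mouse 9 it was 145 genes with 0 keratins among them, so that the 0 says little about keratins. Against wild type 7 keratins were called without it, of 5129 genes. The log2 fold change was below 0 for 9 of 9 keratins, where 51.1% of all genes had a value below 0. Within the 3 index series, which hold 1 or 2 wild-type mice each, 5, 8 and 6 keratins were called for PBS against wild type, of 5579, 5192 and 4937 genes called in either direction (6442 over all mice). For RGLS4326 against wild type the counts were 5, 1 and 3 keratins of 4966, 372 and 2471 genes (4789 over all mice). Calls over all genes were fewer too in index series 2 and 3, but not in 1. The 3 comparisons share mice, so their values are set side by side and not counted as separate evidence. The median log2 fold change of the 9 keratins was 2.08 for PBS against wild type, 1.62 for RGLS4326 against wild type and −0.46 for RGLS4326 against PBS, beside 0.01, 0.004 and −0.004 for all genes.

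**Figure D1:**
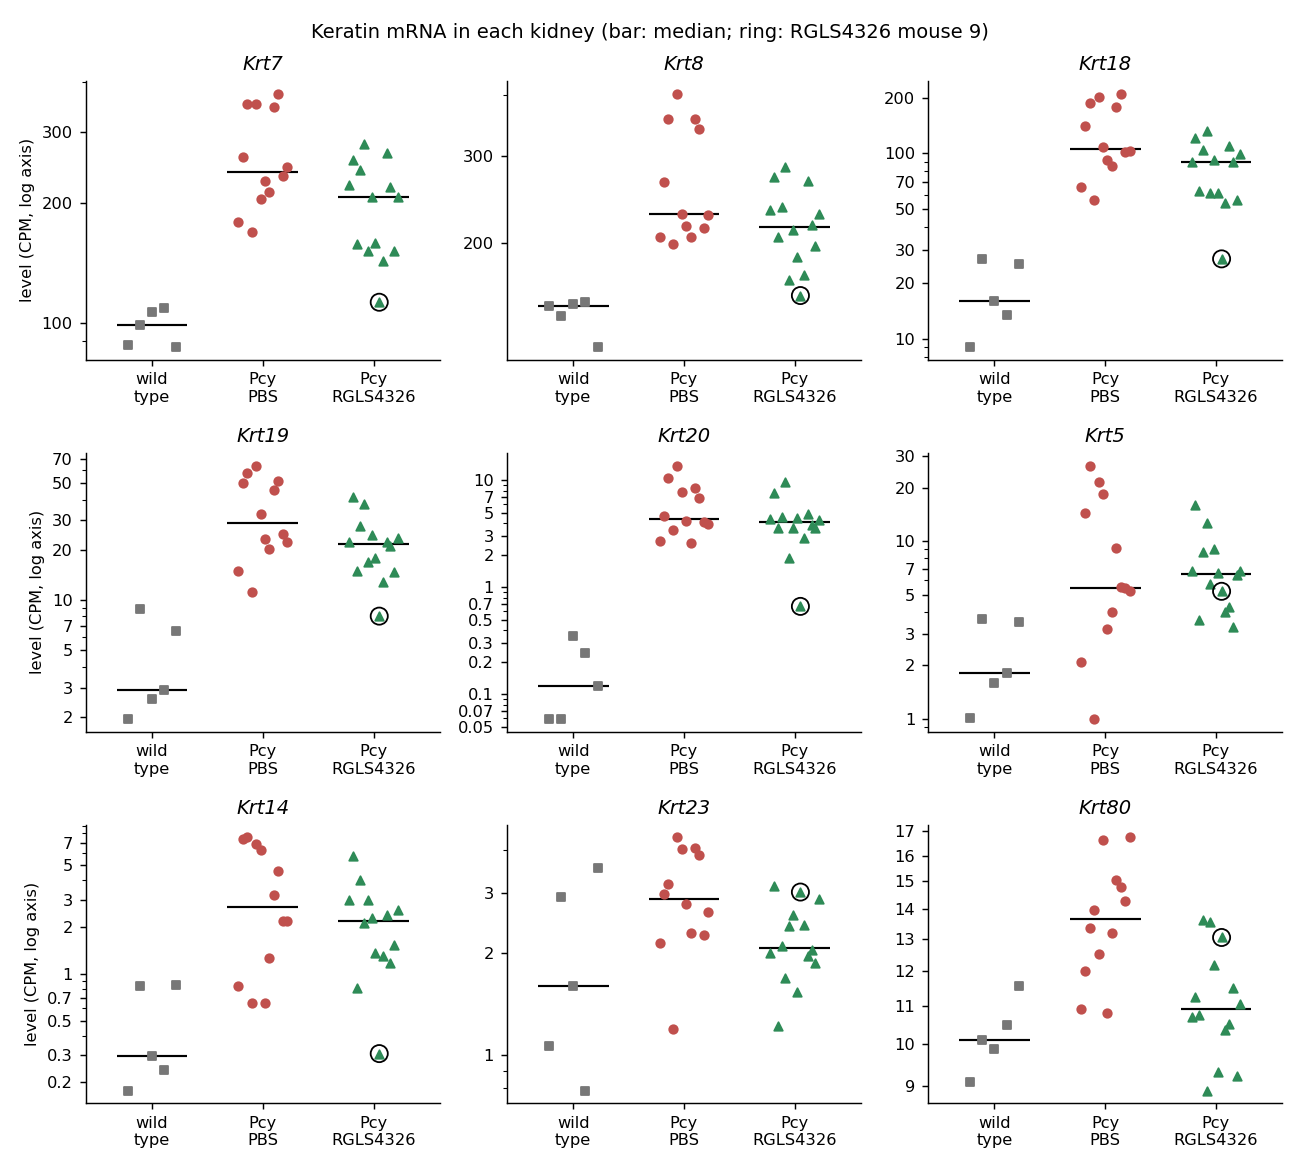
Level of each keratin in every kidney, in CPM on a log axis, for 5 wild-type (squares), 12 Pcy PBS (circles) and 14 Pcy RGLS4326 mice (triangles), with the median as a bar and RGLS4326 mouse 9 ringed. The Pcy points of Krt7, Krt8, Krt18 and Krt20 all lie above the wild-type points, those of Krt23 and Krt80 overlap them, and the PBS and RGLS4326 points overlap for all 9 genes.

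Krt8, the type II chain of the simple epithelial pair, read 148, 142, 150, 152 and 122 CPM in wild-type mice 1 to 5. PBS mice ranged from 199 to 402 CPM with a median of 228, and RGLS4326 mice from 156 to 284 with a median of 215. Wild type stood below both Pcy groups without overlap, although the lowest treated mouse, mouse 9, was only just above the highest wild-type mouse. The log2 fold change was 0.91 for PBS against wild type (SE 0.16, adjusted p = 1.25e-05, edgeR) and 0.60 for RGLS4326 against wild type (SE 0.16, adjusted p = 0.00148, edgeR). RGLS4326 against PBS gave −0.31 (SE 0.11, adjusted p = 0.06, edgeR), with a 95% interval from −0.54 to −0.07, and values of −0.12, −0.38 and −0.39 in the index series and −0.27 without mouse 9 (adjusted p = 0.0994, edgeR). The authors counted uniquely mapped reads, and 23.5% of the 75-base windows of the Krt8 transcript are identical to a stretch of Krt8-ps or Gm36026, and the effect of this on its counts was not tested.

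Krt18, its type I partner, was far lower in the healthy kidney, at 9.02, 26.8, 15.9, 13.5 and 25.4 CPM in wild-type mice 1 to 5. With PBS it ranged from 56.4 to 210 CPM with a median of 106, and with RGLS4326 from 27.0 to 132 with a median of 89.7. Here too both Pcy groups stood above wild type without overlap, mouse 9 by the smallest margin, while 11 of 14 treated mice lay below the PBS median. The difference between PBS and wild type was a log2 fold change of 2.82 (SE 0.36, adjusted p = 8.61e-08, edgeR), a 7.04-fold higher level. RGLS4326 against wild type gave 2.19 (SE 0.35, adjusted p = 4.93e-06, edgeR). RGLS4326 against PBS gave −0.62 (SE 0.22, 95% interval −1.07 to −0.17), past the size threshold but just short of the adjusted p (0.0508, edgeR). In the 3 index series this difference was −0.25, −0.70 and −0.85, with adjusted p = 1, 0.295 and 0.188 (edgeR), and without mouse 9 it was −0.55 (adjusted p = 0.0744, edgeR). Leaving out any 1 of PBS mice 1, 4, 7, 8 and 12 or RGLS4326 mice 2, 4, 5 and 11 brought the adjusted p under 0.05, to between 0.0224 and 0.0489 (edgeR).

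The ratio of the partners differed between groups. Krt8 reads outnumbered Krt18 reads 16.4, 5.29, 9.39, 11.2 and 4.83 to 1 in wild-type mice 1 to 5, by a median of 2.11 to 1 with PBS and by 2.51 to 1 with RGLS4326. All 12 PBS mice, with ratios between 1.62 and 3.52, lay below all wild-type mice. The mean log2 ratio was 3.09 ± 0.74 (SD, n = 5) in wild type and 1.15 ± 0.31 (SD, n = 12) with PBS, a difference of −1.94 (exact two-sided permutation test of mice, p = 0.000162, the smallest this design can give, adjusted p = 0.00097 over 6 ratio tests). With RGLS4326 the mean was 1.47 ± 0.38 (SD, n = 14), 0.32 above PBS (two-sided permutation test, p = 0.0226, adjusted p = 0.0339). Without mouse 9, which had the highest ratio of its group at 5.78 to 1, the difference was 0.24 (permutation p = 0.0397) and missed the threshold after adjustment (0.0595). A ratio within a library needs no scaling between libraries, but it compares reads and not molecules, since the transcripts differ in length.

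**Figure D2:**
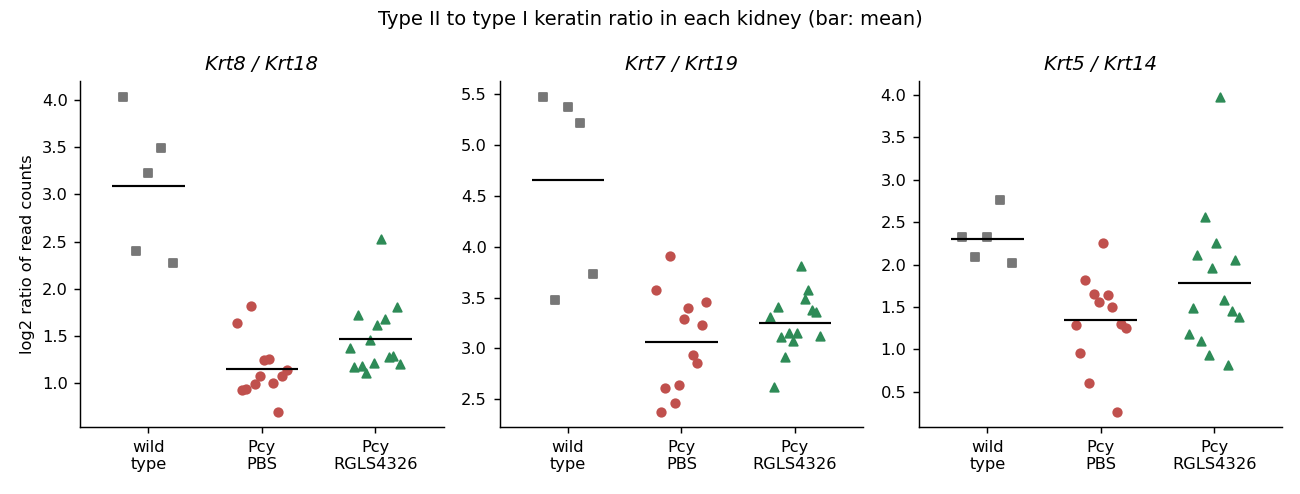
Log2 ratio of read counts of a type II to a type I keratin in each kidney (0.5 counts added to both), with the group mean as a bar, for 5 wild-type, 12 Pcy PBS and 14 Pcy RGLS4326 mice. For Krt8 to Krt18 the PBS mice lie between 0.70 and 1.82, all below the wild-type mice at 2.27 to 4.04.

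Krt7 is a type II chain of ducts and urothelium, on the plus strand of chromosome 15 from 101411043 to 101430313. Wild-type mice 1 to 5 read 88.0, 99.1, 107, 109 and 87.0 CPM, and mice on PBS ranged from 169 to 375 CPM with a median of 239. On RGLS4326 the range was 113 to 281 CPM with a median of 207. The healthy kidneys were tightly grouped and below every Pcy kidney, and 6 of 14 treated mice lay below the lowest PBS mouse. Krt7 was higher with PBS than in wild type by a log2 fold change of 1.43 (SE 0.20, adjusted p = 4.69e-07, edgeR). For RGLS4326 against wild type the value was 1.02 (SE 0.20, adjusted p = 6.68e-05, edgeR). RGLS4326 against PBS gave −0.41 (SE 0.14, adjusted p = 0.0439, edgeR), under the size threshold, with values of −0.14, −0.45 and −0.60 in the index series and −0.36 without mouse 9 (adjusted p = 0.0707, edgeR).

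Krt19, the small type I keratin of ducts, was at 1.95, 8.85, 2.54, 2.91 and 6.503 CPM in wild-type mice 1 to 5. PBS mice reached 11.2 to 64.0 CPM with a median of 28.9. RGLS4326 mice read 8.03 to 41.7 CPM with a median of 21.7. PBS and wild type did not overlap, 13 of 14 treated mice lay above all wild-type mice with mouse 9 the exception, and 12 of 14 lay below the PBS median. The log2 fold change was 2.94 for PBS against wild type (SE 0.44, adjusted p = 9.78e-07, edgeR) and 2.27 for RGLS4326 against wild type (SE 0.43, adjusted p = 5.02e-05, edgeR). For RGLS4326 against PBS it was −0.67 (SE 0.26, 95% interval −1.21 to −0.14, adjusted p = 0.0674, edgeR). Without mouse 9 it was −0.60 (adjusted p = 0.102, edgeR). The index series gave −0.34, −0.74 and −0.93, and without PBS mouse 1 or 4 or RGLS4326 mouse 2 or 5 the adjusted p was between 0.029 and 0.0451 (edgeR). The log2 ratio of Krt7 to Krt19 reads was 4.66 ± 0.97 in wild type (SD, n = 5), 3.06 ± 0.49 with PBS (n = 12) and 3.25 ± 0.30 with RGLS4326 (n = 14). It was lower with PBS than in wild type by 1.60 (exact permutation test, p = 0.00113, adjusted p = 0.00339), and the treated and PBS mice differed by 0.19 (permutation test, p = 0.237), or by 0.14 without mouse 9 (permutation test, p = 0.358).

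Krt20 showed the widest difference of the 9. It was nearly silent in the healthy kidney, at 0.059, 0.0594, 0.355, 0.242 and 0.12 CPM in wild-type mice 1 to 5, which rest on 1 to 6 reads per mouse. With PBS it ranged from 2.59 to 13.8 CPM with a median of 4.39, and with RGLS4326 from 0.665 to 9.73 with a median of 4.06. No Pcy mouse reached down to wild type, and mouse 9 was again the lowest. The log2 fold change was 5.14 for PBS against wild type (SE 0.64, adjusted p = 5.69e-08, edgeR), or 35.4-fold, and 4.64 for RGLS4326 against wild type (SE 0.64, adjusted p = 9.45e-07, edgeR). Because so few wild-type reads stand behind them, the size of both differences is imprecise, with a 95% interval from 3.84 to 6.45 for the first. RGLS4326 against PBS gave −0.51 (SE 0.28, adjusted p = 0.178, edgeR), with −0.10, −0.80 and −0.58 in the index series, −0.33 without PBS mouse 5 and −0.42 without mouse 9.

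The basal pair Krt5 and Krt14, which in urinary tract epithelium marks the cells next to the basement membrane, was low and uneven. Krt5 read 1.003, 3.62, 1.60, 1.82 and 3.49 CPM in wild-type mice 1 to 5, from 0.997 to 26.6 with PBS (median 5.47) and from 3.27 to 16.02 with RGLS4326 (median 6.55). Its coefficient of variation among PBS mice was 87.3%, the highest of the 9 keratins, and 4 of 12 PBS mice (mice 2, 3, 5 and 6) were above 14 CPM while mouse 4 was below all wild-type mice. The log2 fold change was 2.08 for PBS against wild type (SE 0.58, adjusted p = 0.00212, edgeR) and 1.62 for RGLS4326 against wild type (SE 0.57, adjusted p = 0.0144, edgeR). Within the index series PBS against wild type gave 2.26, 2.81 and 0.88, and the adjusted p was 0.137 and 0.0195 in series 1 and 2 (edgeR). Series 3 holds 1 wild-type mouse. RGLS4326 against PBS was −0.46 (SE 0.36, adjusted p = 0.356, edgeR), and moved to −0.21 without PBS mouse 3, −0.29 without PBS mouse 5 and −0.43 without mouse 9. Of its windows of 75 bases, 7.77% also occur in other type II genes such as Krt6a and Krt6b.

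Krt14 read 0.177, 0.832, 0.296, 0.242 and 0.843 CPM in wild-type mice 1 to 5. With PBS it lay between 0.646 and 7.56 CPM (median 2.70), and with RGLS4326 between 0.307 and 5.70 (median 2.20). The groups overlapped, with 9 of 12 PBS mice and 12 of 14 treated mice above all wild-type mice, and the same 4 PBS mice (2, 3, 5 and 6) were the highest. PBS was above wild type by a log2 fold change of 2.92 (SE 0.68, adjusted p = 0.00034, edgeR), and RGLS4326 by 2.23 (SE 0.68, adjusted p = 0.00513, edgeR). For RGLS4326 against PBS the value was −0.69 (SE 0.38, adjusted p = 0.182, edgeR), −0.31, −1.06 and −0.75 in the index series and −0.60 without mouse 9. The log2 ratio of Krt5 to Krt14 reads was 2.30 ± 0.29 in wild type (SD, n = 5) and 1.34 ± 0.54 with PBS (n = 12), lower by 0.96 (exact permutation test, p = 0.00226, adjusted p = 0.00452), and 1.78 ± 0.82 with RGLS4326 (n = 14), which differed from PBS by 0.44 (permutation test, p = 0.125, adjusted p = 0.15). Without mouse 9, whose ratio of 15.77 to 1 was the highest of its group before 5.90, the difference was 0.27 (permutation test, p = 0.229). This ratio rests on 3 to 14 Krt14 reads per wild-type mouse.

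Krt23 and Krt80 passed both thresholds in none of the 3 comparisons over all mice in edgeR, although with DESeq2 Krt23 passed both for PBS against wild type (0.60, adjusted p = 0.0407), as it did with the replicate block (0.56, adjusted p = 0.0445, edgeR). Krt23, a type I keratin, read 1.06, 2.91, 1.60, 0.787 and 3.55 CPM in wild-type mice 1 to 5, 1.196 to 4.37 CPM with PBS (median 2.88) and 1.22 to 3.15 with RGLS4326 (median 2.07). The 3 groups overlapped. The log2 fold change was 0.60 for PBS against wild type (SE 0.28, adjusted p = 0.0541, edgeR), 0.15 for RGLS4326 against wild type (SE 0.27, adjusted p = 0.647) and −0.45 for RGLS4326 against PBS (SE 0.20, adjusted p = 0.0977), the last −0.49 without mouse 9. Within the index series PBS against wild type read 0.26, 1.51 and −0.13. Leaving out any 1 of PBS mice 1, 4, 8 and 11 or wild-type mice 2 and 5 brought the adjusted p of this difference under 0.05 (0.00705 to 0.0476, edgeR), with up to 0.91 without wild-type mouse 5. Without wild-type mouse 1, 3 or 4 it was 0.44, 0.53 and 0.39 (adjusted p = 0.176, 0.12 and 0.203, edgeR). RGLS4326 against PBS passed both thresholds without PBS mouse 4 (−0.52, adjusted p = 0.0382, edgeR).

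Krt80, a type II keratin of epithelia, had the lowest coefficient of variation of the 9 in both Pcy groups, 14.4% with PBS and 13.7% with RGLS4326. It read 9.08, 10.1, 9.88, 10.48 and 11.6 CPM in wild-type mice 1 to 5. PBS mice read 10.8 to 16.8 CPM with a median of 13.7, and RGLS4326 mice 8.89 to 13.6 with a median of 10.9. Most PBS mice, 10 of 12, were above all wild-type mice, and 7 of 14 treated mice were below all PBS mice. PBS against wild type gave a log2 fold change of 0.42 (SE 0.11, adjusted p = 0.00067, edgeR), under the size threshold. RGLS4326 against PBS gave −0.30 (SE 0.08, 95% interval −0.45 to −0.15, adjusted p = 0.0158, edgeR), the smallest adjusted p among the 9 and also under the size threshold. Without mouse 9 it was −0.32 (adjusted p = 0.0158, edgeR), and RGLS4326 against wild type was 0.12 (SE 0.10, adjusted p = 0.29, edgeR). In the index series RGLS4326 against PBS was −0.12, −0.23 and −0.53.

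**Figure D3:**
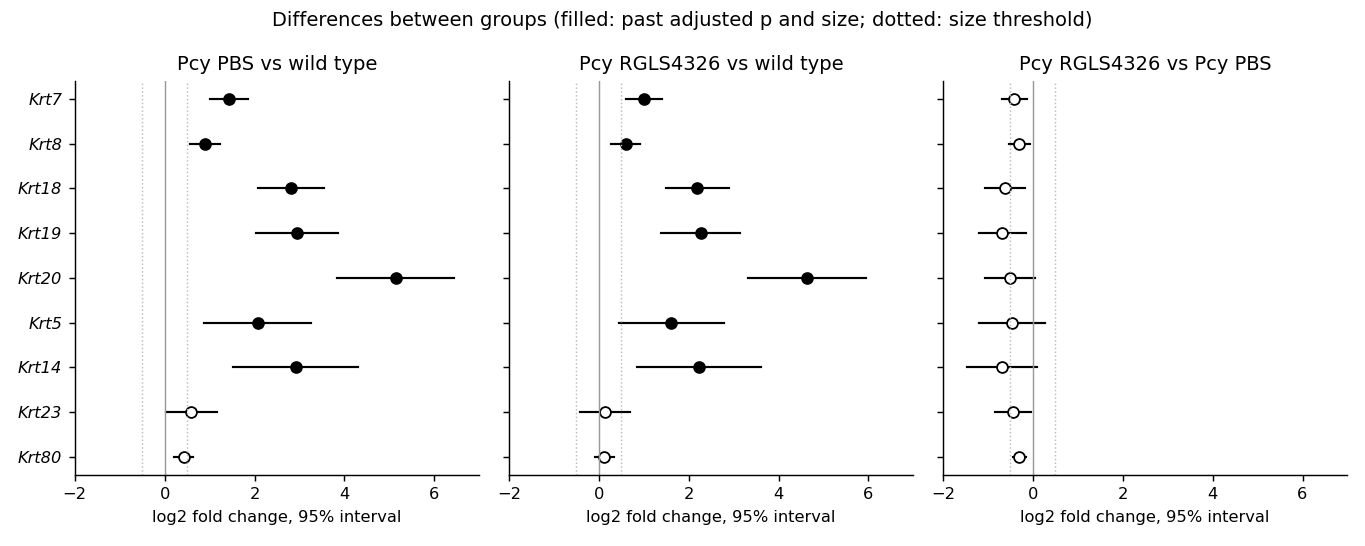
Log2 fold change of each keratin with its 95% interval in 3 comparisons that share mice, filled where the adjusted p and the size threshold were both passed, with dotted lines at the size threshold. Against wild type 7 keratins are filled in both Pcy groups, from 0.60 to 5.14, and none is filled for RGLS4326 against PBS.

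Per kilobase of transcript, which allows genes to be set beside each other, Krt8 had the highest level in wild-type kidneys, at 73.0 CPM per kb, followed by Krt7 at 23.9 and Krt18 at 12.6. With PBS the levels were 137 for Krt8, 88.7 for Krt18, 64.3 for Krt7 and 22.2 for Krt19, and the other 5 lay between 1.91 (Krt23) and 4.46 CPM per kb (Krt80). The place of Krt7 depends on the length used, because its annotated transcript of 4094 bases has a 3′UTR of 2648. Per kilobase of coding sequence Krt7 read 192, Krt8 182 and Krt18 101 CPM per kb with PBS, and in wild type Krt8 read 97.2, Krt7 71.5 and Krt18 14.3. The lengths were not corrected for windows shared with other genes, 23.5% for Krt8 and 0% for Krt7 and Krt18. Summed over the 9 genes, keratin mRNA came to between 259 and 294 CPM in wild type, 455 and 1080 with PBS and 326 and 770 with RGLS4326.

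Among the Pcy mice the 5 simple epithelial keratins varied together. Over deviations from the group means in 26 mice, Pearson's r of log2(CPM + 1) was between 0.81 and 0.97 for every pair of Krt7, Krt8, Krt18, Krt19 and Krt20. Krt5 and Krt14 followed each other at r = 0.85. Krt80 stood outside, with r between −0.17 and 0.35 against the other 8, and Krt23 reached 0.31 to 0.64 with the 7 others besides Krt80. Within the groups Krt23 gave other values. With PBS its r with the 7 was between 0.748 and 0.866, with 7 of 7 adjusted permutation p under 0.05, and still between 0.608 and 0.851 without the 2 mice farthest out. With RGLS4326 its r was between −0.287 and 0.313, and 0 of 7 passed (smallest permutation p = 0.278). Without the 2 mice farthest out it was between −0.679 and −0.196. Tested within each group, 28 of 36 keratin pairs had an adjusted p under 0.05 with PBS (median r = 0.785) and 17 of 36 with RGLS4326 (median r = 0.544), and 28 and 15 by rank, in permutation tests adjusted over 108 relations. Whether the correlations differ between groups was not tested, nor how many pairs of other genes pass in the same way. The mice differed in other genes too, and PBS mice lay between 0.753 and 1.24 on the scale from wild type to PBS. Krt8 and Krt18 gave r = 0.936 with PBS (rho = 0.944, permutation p = 2e-05, adjusted p = 0.000135) and r = 0.920 with RGLS4326 (rho = 0.947, permutation p = 1e-05, adjusted p = 7.2e-05). Without the 2 mice farthest out on Krt18 r was 0.917 and 0.916, and with the means of the index series removed 0.947 and 0.912.

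**Figure D4:**
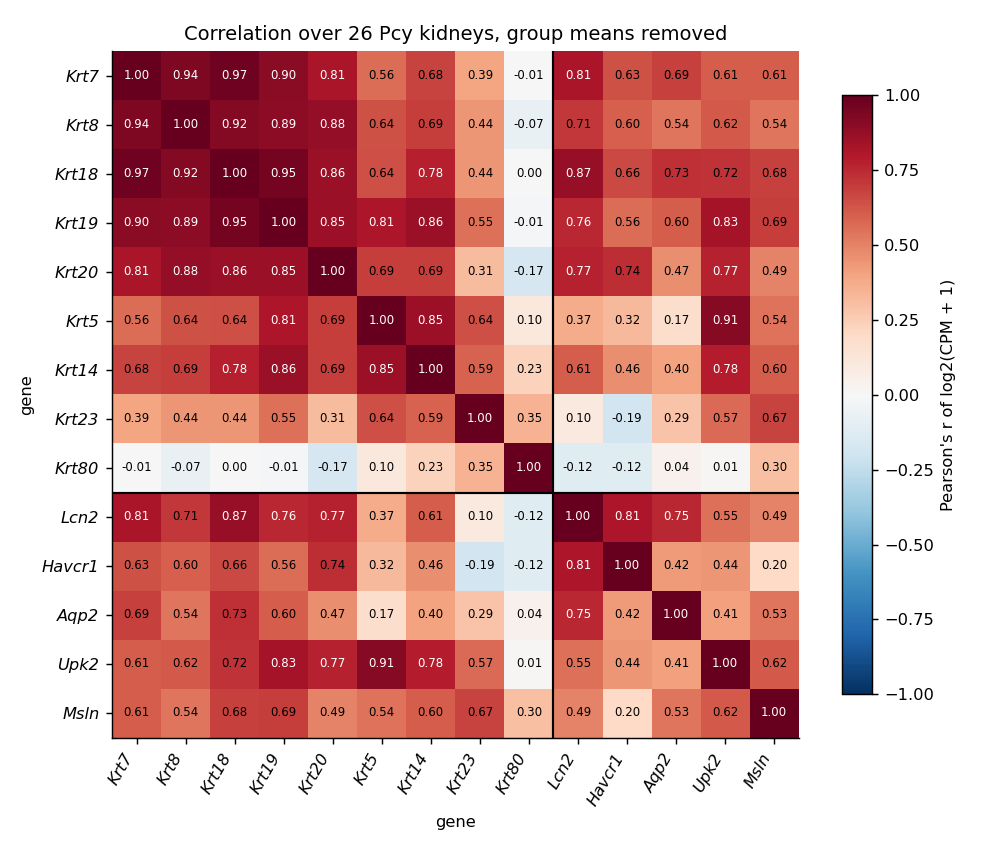
Pearson's r of log2(CPM + 1) between the 9 keratins, and with Lcn2, Havcr1, Aqp2, Upk2 and Msln, over 26 Pcy kidneys after removal of the group means, on a color scale from −1 to 1. The block of Krt7, Krt8, Krt18, Krt19 and Krt20 lies at 0.81 or above, Krt5 is closest to Upk2 among the 5 markers (0.91), and the row of Krt80 stays between −0.17 and 0.35.

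The simple keratins followed Lcn2, the gene of the injury marker Ngal, which read 0.944 to 11.2 CPM in wild type, 205 to 1205 with PBS and 2.76 to 607 with RGLS4326, mouse 9 being the lowest treated mouse. Krt18 and Lcn2 gave r = 0.986 (rho = 0.965) over the 12 PBS mice and r = 0.922 (rho = 0.934) over the 14 RGLS4326 mice, with permutation p = 1e-05, the smallest that 100000 resamples can give, and 3e-05, and adjusted p = 7.2e-05 and 0.000171. Without the 2 mice farthest out on Lcn2 the values were 0.984 and 0.953, and with the means of the index series removed 0.988 and 0.915. Krt7, Krt8, Krt19 and Krt20 gave r between 0.806 and 0.975 with PBS and between 0.766 and 0.840 with RGLS4326, all 8 with an adjusted permutation p under 0.05. Krt5 differed, with r = 0.704 with PBS (rho = 0.804, permutation p = 0.0123, adjusted p = 0.0229) and r = 0.308 with RGLS4326 (rho = 0.503, permutation p = 0.288, adjusted p = 0.38). Krt14 passed in both groups, with r = 0.760 (rho = 0.790, permutation p = 0.00578, adjusted p = 0.0118) and r = 0.699 (rho = 0.516, permutation p = 0.00298, adjusted p = 0.00766), the latter 0.524 without the 2 mice farthest out and not passed by rank (permutation p = 0.0611, adjusted p = 0.103). Krt23 followed Lcn2 with PBS (r = 0.821, rho = 0.811, permutation p = 0.0009, adjusted p = 0.00278), while with RGLS4326 r was −0.268 (rho = −0.095, permutation p = 0.365). Without the 2 mice farthest out on Lcn2 these values were 0.762 and 0.183. Krt80 showed no relation that passed, with r = 0.223 and −0.280 (permutation p = 0.483 and 0.37). How many of all genes follow Lcn2 in this way was not tested, so the relation is not shown to be particular to keratins.

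Aqp2, the water channel of collecting duct principal cells, was followed less closely. Krt18 gave r = 0.739 with PBS (rho = 0.608, permutation p = 0.0051, adjusted p = 0.0108) and r = 0.718 with RGLS4326 (rho = 0.323, permutation p = 0.00952, adjusted p = 0.0186). These relations rest on few mice, since without the 2 farthest out on Aqp2 r dropped to 0.418 and 0.384. Over all 9 keratins and both markers, 12 of 18 relations with PBS and 8 of 18 with RGLS4326 had an adjusted permutation p under 0.05, and by rank 9 and 5. The share over all genes was not tested. The 2 relations of Krt18 with Aqp2 did not pass by rank (adjusted p = 0.0738 and 0.378 by permutation).

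**Figure D5:**
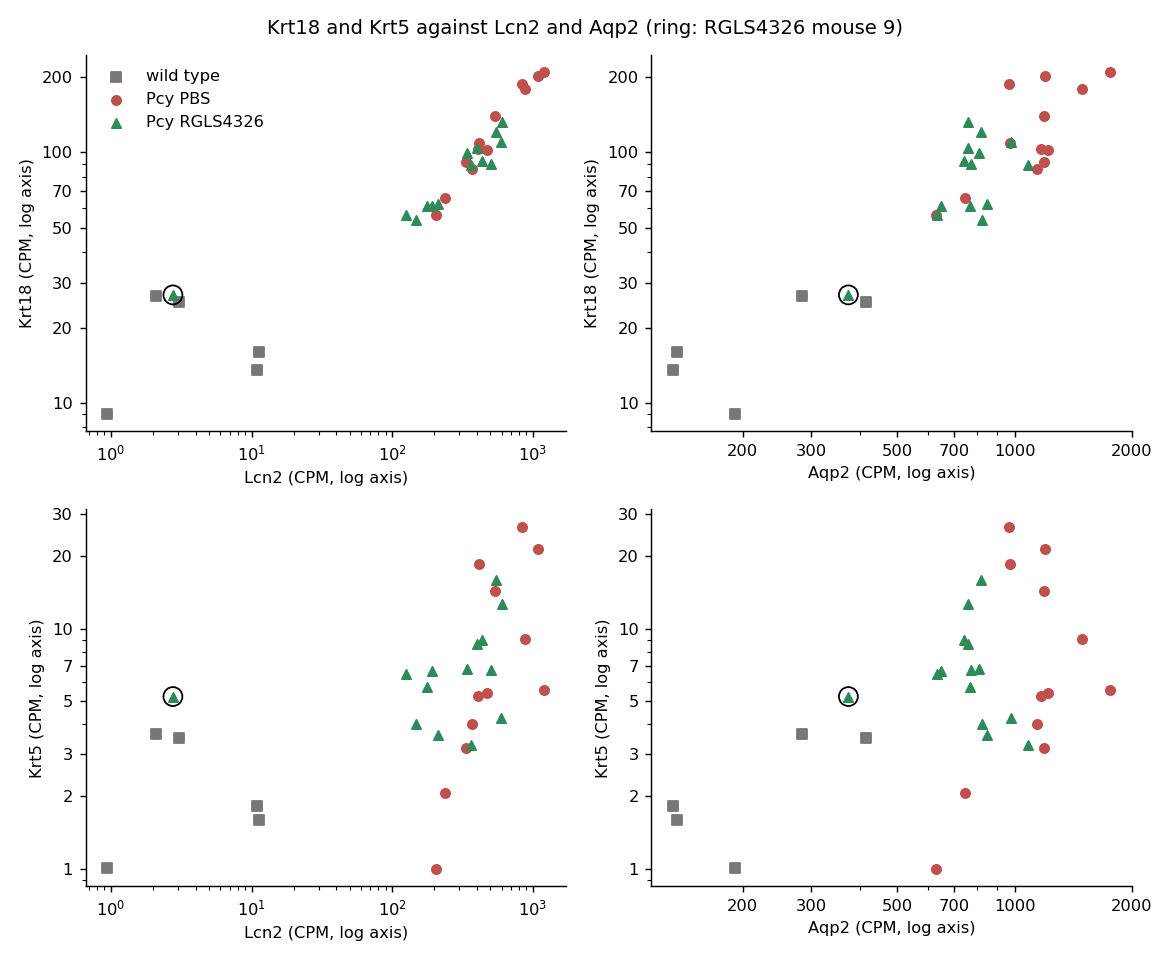
Krt18 and Krt5 against Lcn2 and Aqp2 in every kidney, in CPM on log axes, for wild-type (squares), Pcy PBS (circles) and Pcy RGLS4326 mice (triangles), with RGLS4326 mouse 9 ringed. Krt18 rises with Lcn2 among PBS (r = 0.986) and RGLS4326 mice (r = 0.922), mouse 9 lies beside the wild-type points, and Krt5 scatters more widely.

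Among 11568 genes that averaged 5 CPM or more, the ones most like each keratin over the 26 Pcy mice, with group means removed, were of different kinds, and their r is given as a description. Krt18 was closest to Cldn4 (r = 0.988) and Cldn7 (0.976), claudins of tight junctions in the distal nephron, and Krt7 to Cldn7 (0.974) and Gpr56 (0.971). Krt8 was closest to Clic1 (0.978), a chloride channel protein, and Krt19 to Krt18 (0.954) and Sfn (0.948). Krt20 led a list with Cd14 (0.916), Hspb1 (0.905) and Cebpd (0.903), a receptor for bacterial lipopolysaccharide, a small heat shock protein and a transcription factor of the acute phase. Krt5 was closest to Upk3a (0.965), a plaque protein of the urothelium, Ly6d (0.958) and Sprr1a (0.955), and Krt14 to Mycl (0.925) and Krt15 (0.885). The best partners of Krt23 (Rasal1, 0.820) and Krt80 (Gpr110, 0.743) were weaker. Over the 3 closest genes of each keratin, 27 pairs with those not named here, r stayed at 0.675 or above without mouse 9.

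Of the 43 other keratin genes, 5 passed the filter and 31 had under 10 reads over all mice together. Krt15, Krt17 and Krt4, known from basal and stratified epithelia, were higher with PBS than in wild type, Krt15 at 2.16 CPM in wild type and 9.82 with PBS (log2 fold change 2.19, SE 0.57, adjusted p = 0.00102, edgeR) and Krt17 at 0.0357 and 0.571 CPM (3.81, SE 0.96, adjusted p = 0.000767, edgeR). Krt10, a keratin of cornified epidermis, was lower, at 10.9 CPM in wild type and 5.90 with PBS (−0.89, SE 0.12, adjusted p = 2.20e-07, edgeR), as was Krt222 (−3.10, SE 0.36, adjusted p = 2.53e-08, edgeR). These 3 higher and 2 lower of 5 stand beside 24.6% and 17.8% of all genes. Between RGLS4326 and PBS 0 of the 5 passed both thresholds, where 1.22% of all genes were called lower, and Krt10 was 0.29 higher by the adjusted p alone (SE 0.09, adjusted p = 0.0386, edgeR), or 0.25 without mouse 9 (adjusted p = 0.0684, edgeR).

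The proteins that anchor keratins were less uniform. Of 16 desmosome and keratin linker genes, 8 were called higher and 2 lower with PBS than in wild type, against 24.6% and 17.8% of all genes, with a median log2 fold change of 0.41. Plec, the large linker plectin, was higher (0.69, SE 0.10, adjusted p = 7.32e-07, edgeR), and Pkp4, a plakophilin relative of cell junctions, was lower (−0.76, SE 0.10, adjusted p = 9.14e-08, edgeR). Between RGLS4326 and PBS 0 of 16 passed both thresholds, where 1.22% of all genes were called lower. By the adjusted p alone 5 were lower, against 6.66% of all genes (median of the list −0.16), among them Dsp, desmoplakin, which ties keratin filaments to desmosomes (−0.31, SE 0.09, adjusted p = 0.0317, edgeR), and 2 were higher, against 9.15%. Without mouse 9, 2 were lower and 1 higher, where 3.48% and 4.66% of all genes were, and Dsp was −0.33 (adjusted p = 0.036, edgeR). Dsp missed the adjusted p without PBS mouse 2, 3, 5, 9 or 10 or RGLS4326 mouse 3, 8 or 13 (0.0505 to 0.0724, edgeR). Of 9 other intermediate filament genes tested, 7 were called higher with PBS than in wild type, again against 24.6% of all genes, with a median of 1.17, led by Vim, the filament of mesenchyme and of dedifferentiated tubules (1.55, SE 0.18, adjusted p = 2.29e-08, edgeR). Of 13 epithelial transcription factors, 11 were called higher and 1 lower, against the same shares as the linkers, with a median of 1.06, among them Elf3 (2.18, SE 0.30, adjusted p = 2.50e-07, edgeR), Gata3 (1.37, SE 0.17, adjusted p = 4.18e-08, edgeR) and Grhl2 (1.06, SE 0.14, adjusted p = 1.99e-07, edgeR), and 3 were lower with RGLS4326 than with PBS by the adjusted p alone, against 6.66% of all genes, or 2 without mouse 9.

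Markers of several epithelia, some with little keratin, and of tubular injury were set beside the keratins. Of 13 collecting duct markers, 10 were called higher with PBS than in wild type and 1 lower, against 24.6% and 17.8% of all genes (median log2 fold change 1.31), and their summed level was 1218 to 1553 CPM in wild type, 2236 to 4030 with PBS and 1513 to 2966 with RGLS4326. Between RGLS4326 and PBS 8 were lower by the adjusted p, against 6.66% of all genes (median −0.36), of which Aqp2 passed both thresholds (−0.56, SE 0.16, adjusted p = 0.0265, edgeR). Mouse 9 had the lowest Aqp2 of the treated mice, and without it 7 markers were lower, against 3.48% of all genes, and Aqp2 was −0.50 (adjusted p = 0.0395, edgeR). Aqp2 missed the adjusted p without PBS mouse 9 (0.0551, edgeR) or 10 (0.063). Of 12 urothelium markers, 10 were called higher with PBS, against 24.6% (median 1.47), with sums of 16.4 to 82.1 CPM in wild type, 23.8 to 277 with PBS and 66.2 to 228 with RGLS4326, and 0 of 12 passed the adjusted p in edgeR between RGLS4326 and PBS, where 6.66% of all genes were lower and 9.15% higher (median −0.17). Of 6 mesothelium markers tested, 5 were called higher and 1 lower with PBS, against 24.6% and 17.8% (median 1.65), with sums of 131 to 176, 266 to 902 and 166 to 504.3 CPM. C3, a complement gene, carried the higher sums, since without it the 6 other markers in the files summed to 121 to 148 CPM in wild type, 70.2 to 107 with PBS and 72.3 to 114.5 with RGLS4326. Gpm6a, a membrane glycoprotein gene, was the one called lower (−1.28, SE 0.14, adjusted p = 1.46e-08, edgeR). Its mean was 124 CPM in wild type and 51.2 with PBS, most of the sums without C3, while Wt1, Msln and Upk3b were called higher. Of 12 proximal tubule markers, 12 were called lower with PBS than in wild type (median −1.19), where 17.8% of all genes were called lower, and 6 of 12 were higher with RGLS4326 than with PBS by the adjusted p (median 0.38), where 9.15% of all genes were. Without mouse 9 only 1 of 12 was higher, against 4.66% of all genes. With it Slc13a3, a dicarboxylate transporter gene, passed both thresholds (0.54, SE 0.17, adjusted p = 0.0352, edgeR). Mouse 9 had the highest level of its group at 1206 CPM, and without it the value was 0.38 (adjusted p = 0.0629, edgeR). The adjusted p was also above 0.05 without PBS mouse 2, 3, 5, 9 or 10 or RGLS4326 mouse 8, 10 or 13. Of 13 markers of tubular injury, 13 were called higher with PBS, against 24.6% (median 2.77). Between RGLS4326 and PBS 2 were lower by the adjusted p, against 6.66% (median −0.38), of which Sox4 passed both thresholds (−0.59, SE 0.17, adjusted p = 0.0262, edgeR). Without mouse 9 Sox4 was −0.52 (adjusted p = 0.0348, edgeR), and it missed the adjusted p without PBS mouse 5, 9 or 10 (0.052 to 0.0604, edgeR). Of 13 squamous and skin markers 4 passed the filter, of which 3 were called higher and 1 lower with PBS, against 24.6% and 17.8% (median 2.67), and Krt2, Krt6a, Krt6b and Lce1a1 were at 0 in every mouse. The lists share 7 genes, such as Upk3b of urothelium and mesothelium. The part of these cell types in the keratin differences was not tested.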

How the data were processed

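Kidney RNA of 31 mice was measured by stranded, poly(A)-selected RNA-seq with paired reads of 75 bases. Per the labels and the study's methods, the authors checked reads with FastQC 0.11.2, trimmed them with Trim Galore, aligned them to GRCm38 with STAR and counted uniquely mapped reads per gene with HTSeq 0.6.1. The annotation and the strand setting are not given in the sources used here. The deposited values are raw counts with no normalization, 1 table per mouse. Rows for reads in no gene (8.39% to 10.1% of the total of each table, these rows included), in ambiguous positions (0.3% to 0.41%) and aligned more than once (17.8% to 21.2%) were left out.

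Samples were grouped by their labels. Counts were filtered with edgeR's filterByExpr, scaled by TMM and fitted by edgeR 4.0.16 (R 4.3.3) with 1 coefficient per group and no covariate, with the 2 thresholds the study names. Standard errors are the log2 fold change over the square root of F and approximate. Ratios and correlations were tested by permuting mice. P-values measure the spread between mice of this study. Alternatives were RLE scaling, DESeq2 1.42.0, no filter, only the groups compared, adjusted p alone, index series as a covariate or alone, the replicate number as a block, and single mice left out. The ratios and list counts without RGLS4326 mouse 9, and single mice left out for Aqp2, Slc13a3, Sox4, Dsp and Krt10, were added after the data had been seen. The procedure was tested on simulated data. Transcripts came from GENCODE vM21, and promoters and miRNAs from RefSeq. Python 3.11.15, scipy 1.17.1 and pandas 2.3.3 were used.

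The 9 keratins and the gene lists were chosen with earlier results of these data known. Besides the 9, Lcn2 and Aqp2, the text could name from each list and from the other keratins the 3 genes with the smallest p in either comparison of the PBS group and for each keratin the 3 most correlated genes. Members named as absent, as sharing reads or as held by several lists, Krt4, and Havcr1, Upk2 and Msln in the correlation plot, fall outside that rule and were chosen with values known. Replicate numbers do not pair the mice.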

Additional observations from a re-analysis of the deposited data

How the results depend on the processing

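The 7 keratins called higher with PBS than in wild type kept that count under RLE scaling, without a filter, in a model of the 2 groups compared and with the index series as a covariate, and the count was 8 under DESeq2 and with the replicate block (with Krt23) and by the adjusted p alone (with Krt80), 5, 8 and 6 within the 3 index series, and 7 to 8 when single mice were left out. For RGLS4326 against PBS the count of calls was 0, but 2 by the adjusted p alone, 1 under DESeq2 and 0 to 3 when single mice were left out (3 without PBS mouse 4, 2 without PBS mouse 1 or RGLS4326 mouse 2 or 5, and 1 without PBS mouse 7, 8 or 12 or RGLS4326 mouse 4 or 11). Calls over all genes were more in those fits too, 351 to 574, and 401 under DESeq2, against 327. Within each index series alone 0 keratins and 0 genes in all were called by edgeR in that comparison. For RGLS4326 against wild type it was 7, and 5, 1 and 3 within the index series, where 4966, 372 and 2471 genes in all were called against 4789 over all mice. The third index series holds 1 wild-type mouse, mouse 5. There the direction turned for Krt23 with PBS against wild type (−0.13), and with RGLS4326 against wild type for Krt23 (−0.65) and Krt80 (−0.12). Krt23 with RGLS4326 against wild type also turned without wild-type mouse 1 (−0.0069) or 4 (−0.051). Its range over all single mice left out was −0.051 to 0.47. The cause was not tested.

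Replicate numbers in the labels do not pair the mice (mean correlation of same-numbered mice 0.087, −0.085 and −0.03), and with the replicate block the counts of calls were 8 for PBS against wild type, 0 for RGLS4326 against PBS and 7 for RGLS4326 against wild type, of 5950, 3 and 5076 genes called in all (6442, 327 and 4789 without the block), so that the 0 under the block says nothing about keratins. The block moved Krt5 for RGLS4326 against PBS from −0.46 to −0.13. All 6 ratio tests stayed on the same side of p = 0.05 under the alternatives run, before adjustment, and the ratio of Krt8 to Krt18 between the Pcy groups missed it after adjustment without RGLS4326 mouse 9 (0.0595). In wild type, scaling by library totals alone moved Krt7 to 82.1, Krt8 to 120 and Krt80 to 8.57 CPM. Krt20 and Krt14 rest on 1 to 6 and 3 to 14 reads per wild-type mouse, and comparisons with 5 wild-type mice are the least precise.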
